A study of Homo sapiens and Mus musculus with 20 samples.

Results

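The genes described here are those whose symbols start with KCN, the symbol stem of human potassium channel subunits and their accessory proteins. There were 50 such genes among the 17552 genes listed in either of a pair of inhibitor experiments, 40 of 16683 in the A485 experiment and 46 of 16417 in the MS-275 experiment, with 36 in both. Of the 50, 19 were also among the 12013 genes listed in the pyruvate experiment. Bulk RNA-seq was carried out in IMR90, a wild-type human fetal lung fibroblast line, with 2 libraries per group. A485 inhibits the acetyltransferase p300 and was compared with Control2, MS-275 inhibits class I histone deacetylases and was compared with Control3, and pyruvate, which the study gave to senescent cells, was compared with Control6. The labels give no dose or time of treatment for these libraries and do not say whether the 2 libraries of a group came from separate cultures, so p-values measure the spread between these libraries only. Other KCN genes, 48 of the 96 protein-coding ones in the annotation, were not analysed here.

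Potassium channels let potassium leave or enter the cell and so set the membrane potential, which in fibroblasts bears on calcium entry, volume and migration. Pore subunits fall into voltage-gated channels, inward rectifiers, tandem pore domain leak channels and channels opened by calcium or sodium. Auxiliary subunits attach to these pores and change their gating or surface level, and some voltage-gated subunits, the electrically silent KCNF, KCNG and KCNS families, carry current only when joined to another pore subunit. Sorted by symbol, the 50 genes comprised 19 voltage-gated, 7 inward rectifier, 4 tandem pore domain, 7 calcium- or sodium-activated and 10 auxiliary subunits, and 3 others, namely the antisense RNAs KCNJ2-AS1 and KCNQ1OT1 and KCNRG, a soluble protein that hinders channel assembly. The calcium- or sodium-activated class holds the KCNMA, KCNN, KCNT and KCNU symbols, and KCNU1 is in it by symbol only. By coordinates, 23 of the 50 overlap another annotated gene, and because the strand setting of counting is not given, such pairs can share reads.

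RefSeq promoter sequence was matched for 38 of the 50 genes, which had 64 listed start sites. The 250 bases before a start are shown for 4 genes that turn up in the results below: KCNN1 and KCNN4, which were higher in the MS-275 libraries, KCNJ2, which was lower after A485, and KCNF1, which was lower in the libraries of both inhibitors. KCNN1 has 2 listed starts, and the first is printed. Sequences are from build GRCh38.p14, read on the strand of the gene from 5′ to 3′, with every CG dinucleotide in capitals.
KCNN1, plus strand, chr19:17952007-17952256: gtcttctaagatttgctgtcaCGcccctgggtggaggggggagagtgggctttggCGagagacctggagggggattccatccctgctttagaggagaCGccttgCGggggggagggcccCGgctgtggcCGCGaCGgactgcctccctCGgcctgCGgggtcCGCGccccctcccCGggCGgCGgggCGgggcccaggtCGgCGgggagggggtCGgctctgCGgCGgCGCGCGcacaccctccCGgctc
KCNN4, minus strand, chr19:43780974-43781223: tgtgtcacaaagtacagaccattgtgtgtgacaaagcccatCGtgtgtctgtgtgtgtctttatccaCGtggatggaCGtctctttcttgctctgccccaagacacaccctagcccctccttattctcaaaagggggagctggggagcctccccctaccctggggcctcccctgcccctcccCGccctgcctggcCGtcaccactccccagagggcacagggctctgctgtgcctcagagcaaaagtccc
KCNJ2, plus strand, chr17:70169282-70169531: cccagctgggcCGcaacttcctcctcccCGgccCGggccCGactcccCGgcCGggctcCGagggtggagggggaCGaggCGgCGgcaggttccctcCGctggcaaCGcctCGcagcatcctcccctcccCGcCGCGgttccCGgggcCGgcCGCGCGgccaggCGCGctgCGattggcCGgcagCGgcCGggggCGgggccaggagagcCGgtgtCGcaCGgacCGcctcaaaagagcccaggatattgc
KCNF1, plus strand, chr2:10911684-10911933: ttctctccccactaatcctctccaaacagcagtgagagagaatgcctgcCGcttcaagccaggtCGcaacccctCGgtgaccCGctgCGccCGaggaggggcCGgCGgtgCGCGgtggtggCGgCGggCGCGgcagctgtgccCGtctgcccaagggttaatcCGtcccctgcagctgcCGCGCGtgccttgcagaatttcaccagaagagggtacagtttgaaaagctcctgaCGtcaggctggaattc
The KCNJ2 stretch held 32 CG dinucleotides, that of KCNN1 25, that of KCNF1 20 and that of KCNN4 5. Over the 64 starts of KCN genes the median was 15, against 11 over all 35116 starts in the table. The GC box letters GGGCGG, searched on both strands, occurred at 56.2% of the KCN starts and at 42.6% of all starts. The cyclic AMP response element letters TGACGTCA occurred at 1.56% of KCN starts, which is the KCNF1 start shown above, and at 1.65% of all starts. The AP-1 letters TGANTCA were found at 9.38% and 6.57%, and the TATA box letters TATAAA at 9.38% and 10.7%.

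Values are read counts per gene divided by the size factor of the library, called normalized counts, and the libraries held 39194881 to 46971227 reads in the inhibitor experiments and 24179065 to 30156436 in the pyruvate experiment. The fibroblast label was checked against markers, and all 8 fibroblast markers (COL1A1, COL1A2, COL3A1, DCN, LUM, THY1, PDGFRB and VIM) were listed in each experiment, with a summed level of 1357445 and 1511442 in Control2. Of 4 leukocyte markers, LYZ alone was listed in the A485 experiment and none in the others, with LYZ at 12.8 to 17.1 in Control2. Markers of other types were listed as well. Their summed levels in Control2 were 51457 and 59141 for smooth muscle and 991 and 979 for neuronal markers. For epithelial markers they were 861 and 1445, and for endothelial markers 34.2 and 114. Per kilobase of annotated exon, the 5 KCN genes with the highest mean level in Control2 were KCNK2, KCNE4, KCNJ8, KCNJ2 and KCNG1. KCNK2, a stretch-sensitive leak channel, was at 488 and 215 normalized counts per kilobase in the 2 libraries. KCNE4, a single-pass auxiliary subunit, was at 426 and 190, and KCNJ8, the pore of an ATP-sensitive channel, at 203 and 103. KCNJ2, a strong inward rectifier, was at 95.2 and 182, and the silent subunit KCNG1 at 115 and 153. Each of these genes overlapped the next in that order, so the order of neighbours is not larger than the spread between libraries.

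After A485, 8 of the 36 KCN genes tested were lower and 2 were higher, against 7.06% lower and 3.31% higher over all 16084 genes tested (limma, Benjamini-Hochberg adjusted p under 0.05 and an absolute log2 fold change above 1). The genes called lower were the leak channel KCNK2, the calcium-activated KCNN2 and KCNMA1 and the inward rectifier KCNJ2. The voltage-gated KCNQ3, KCNF1 and KCNG1 and the auxiliary KCNE4 were called lower too. Of these 8, KCNQ3 and KCNF1 are listed only through their Control2 libraries, so their calls are no evidence of a fall. The genes that rose were KCNT2, a sodium-activated pore subunit, and KCNMB4, the auxiliary subunit that pairs with KCNMA1. The median log2 fold change was -0.94 over the 36 KCN genes and 0.01 over all genes, and 21 of the 36 were below 0.

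Of the voltage-gated subunits, 13 of 17 listed were tested and 3 were lower. KCNQ3, a subunit of the slow M-type current of neurons, was at 40.7 and 36.7 normalized counts in Control2 and at 0 and 0 after A485. Both treated libraries were without a read, and with a floor of 3 reads per library the level was at least 14.9-fold lower (log2 fold change -5.31 ± 0.75 SE, adjusted p = 0.0115). Its fitted log2 fold change depends on the pseudocount, from -2.28 to -8.60 over the alternatives. KCNQ3 is listed only through its Control2 libraries, so these values are a description and no evidence of a fall. KCNF1 was at 92.0 and 206 in Control2 and at 5.06 and 10.7 after A485, a log2 fold change of -4.04 ± 0.65 (adjusted p = 0.0168). With 6 and 12 reads after A485, KCNF1 too reached the listing limit only through Control2. KCNG1, which like KCNF1 is electrically silent alone, was at 622 and 826 and then at 180 and 212 (-1.87 ± 0.28, adjusted p = 0.0127). For these 3 genes the treated libraries lay below both controls. KCNQ5, a close relative of KCNQ3, was at 293 and 82.0 in Control2 and at 29.5 and 12.5 after A485, and did not pass (adjusted p = 0.0571). KCND2, a pore of the fast transient current, was at 68.5 and 58.7 and then at 8.43 and 16.0 (adjusted p = 0.0506).

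Among the inward rectifiers, 1 of 4 was lower. KCNJ2 was at 531 and 1016 normalized counts in Control2 and at 37.1 and 26.7 after A485, a mean of 773 ± 343 (SD) against 31.9 ± 7.33 (log2 fold change -4.50 ± 0.44 SE, adjusted p = 0.0039). The antisense RNA KCNJ2-AS1, whose gene overlaps the start of KCNJ2, was at 27.8 and 80.8 and then at 10.1 and 5.34 (adjusted p = 0.0792). KCNJ8 stayed within the spread of its libraries, at 510 and 259 in Control2 and at 537 and 299 after A485 (log2 fold change 0.14 ± 0.44).

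KCNK2 was the 1 tandem pore domain gene of 4 that was called. It was at 2094 and 925 in Control2 and at 13.5 and 12.5 after A485, 116-fold lower by the means (log2 fold change -6.64 ± 0.47 SE, adjusted p = 0.00193). Even the lower control library was far above both treated libraries. KCNK6, another leak channel, was at 889 and 624 and then at 714 and 489, with overlapping groups (adjusted p = 0.492).

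All 3 listed calcium- or sodium-activated subunits were called, 2 lower and 1 higher. KCNN2, a small-conductance channel opened by calcium through calmodulin, was at 360 and 722 in Control2 and at 19.4 and 13.4 after A485 (log2 fold change -4.90 ± 0.49 SE, adjusted p = 0.00438). KCNMA1, the pore of the large-conductance calcium-activated channel, was at 2983 and 4739 and then at 358 and 828 (-2.78 ± 0.43, adjusted p = 0.0147). KCNT2 was at 173 and 142 in Control2 and at 659 and 788 after A485, 4.59-fold higher (2.19 ± 0.27, adjusted p = 0.00777). None of the 3 had overlapping groups. Of 9 auxiliary subunits, KCNE4, an inhibitor of KCNQ1 channels, fell and KCNMB4 rose. KCNE4 was at 1598 and 712 and then at 121 and 135 (-3.05 ± 0.42, adjusted p = 0.0102). KCNMB4, which slows the gating of the KCNMA1 channel, was at 200 and 119 in Control2 and at 972 and 562 after A485 (2.25 ± 0.40, adjusted p = 0.0215). The pore KCNMA1 and its partner KCNMB4 thus moved in opposite directions in these libraries.

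**Figure D1:**
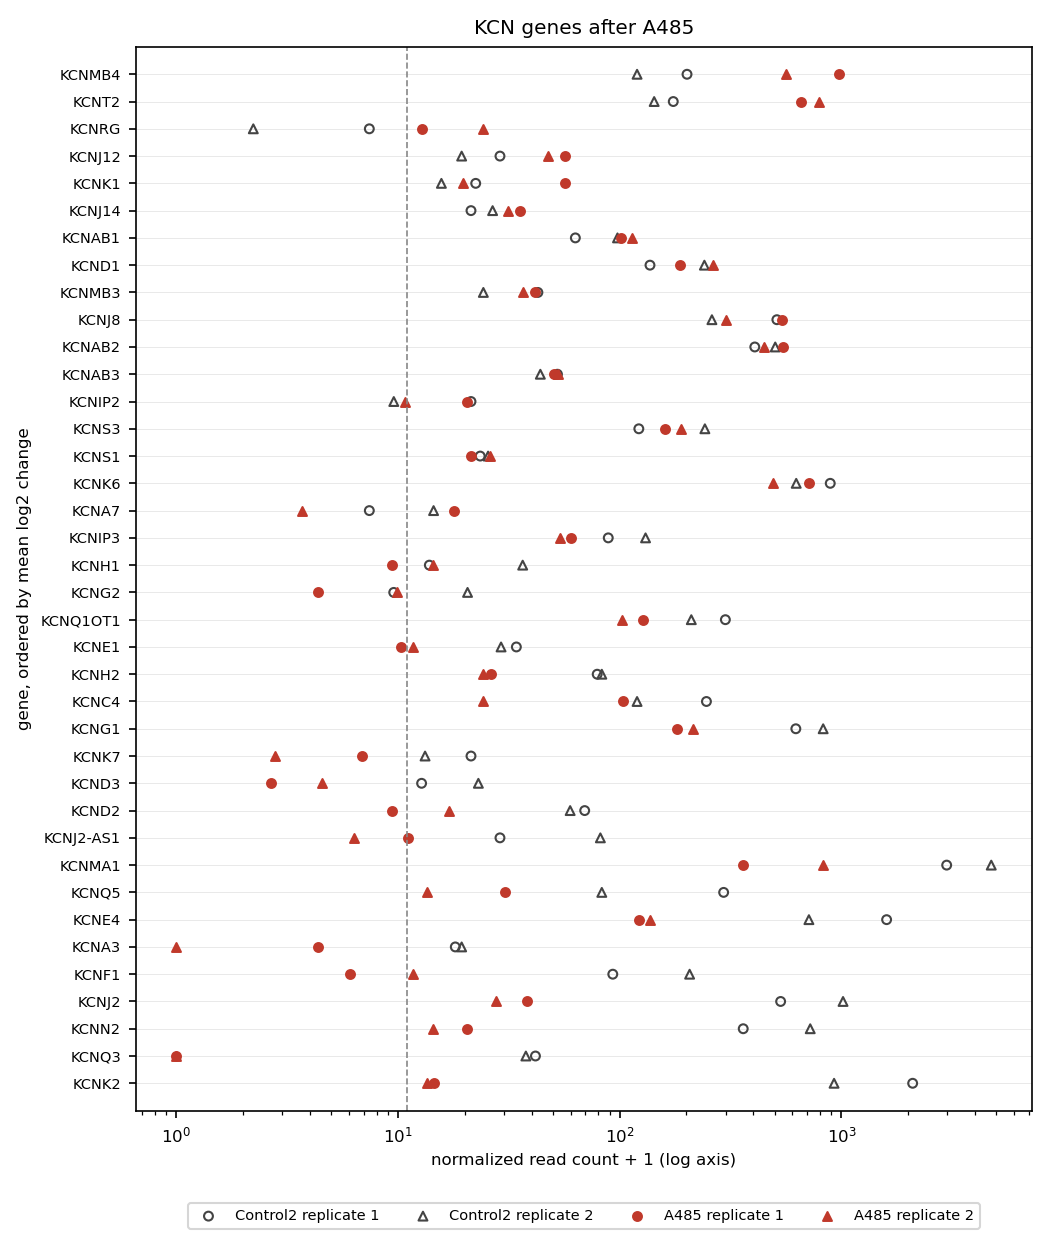
Each KCN gene of the A485 experiment that is reported here is a row, with open symbols for the 2 Control2 libraries and filled symbols for the 2 A485 libraries, circles for replicate 1 and triangles for replicate 2. The x axis is the normalized count plus 1 on a log axis, and the dashed line marks 10 normalized counts. The lowest rows are the genes with the most negative mean change, where KCNK2 went from 2094 and 925 to 13.5 and 12.5.

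Near silent here means under 10 normalized counts in both control libraries, and 2.91% of all genes in the A485 experiment were so. Of the KCN genes reported here, KCNRG was so. A gene this low in the controls is, as a rule, listed only where its treated libraries are higher, so this is a description and no evidence of a rise. KCNRG was at 6.42 and 1.22 normalized counts in Control2 and at 11.8 and 23.2 after A485 (adjusted p = 0.176). In the other direction, KCNQ3, KCNK7, KCNA3, KCND3 and KCNG2 were under 10 in both A485 libraries and not in both controls. All of these but KCNG2 had under 10 reads in each A485 library and are listed only through Control2. This is a description and no evidence of a fall, and the share of all genes was not counted. A gain or loss, set as a log2 change above 1 or below -1 between the treated and control libraries of both replicate numbers, was met by 4 KCN genes (KCNMB4 and KCNT2 among them) and 19 KCN genes respectively, against 6.47% and 9.94% of all listed genes. Of the 19, KCNG2 had overlapping groups. The share of all genes without overlap was not counted, in this or the other comparisons.

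The calls after A485 depended on its libraries. Without A485 replicate 1 no KCN gene was higher and 3 were lower, against 0.0875% and 1.34% of all genes. Without A485 replicate 2 none was higher and 4 were lower, against 0.0684% and 1.8%, so calls were fewer over all genes as well. Without Control2 replicate 2 KCNMB4 lost its call, leaving 1 higher and 7 lower, against 2.57% and 5.05%. KCNK2, KCNN2 and KCNJ2 kept their calls under each of the 15 alternatives run for them. Other cell type markers moved in the same libraries. Of the 8 fibroblast markers, 7 were lower after A485, and their summed level went from 1357445 and 1511442 to 428267 and 502039. Of 4 listed smooth muscle markers, ACTA2, CNN1 and TAGLN were lower, with a summed level of 51457 and 59141 in Control2 and 9475 and 8471 after A485. In bulk samples fewer cells of a type and less RNA per cell cannot be told apart, and the part of these markers in the KCN changes was not tested.

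After MS-275, no KCN gene of 44 tested passed the same test in either direction, and none of all 15883 genes did either, so that 0.0% were called higher and 0.0% lower. The smallest adjusted p of a KCN gene was 0.163. At an unadjusted p under 0.05 there were 12 higher and 2 lower KCN genes, against 6.2% higher and 4.69% lower over all genes. edgeR on the recovered reads also called 0 and 0. DESeq2 on the same reads called 8 higher (among them KCNAB2, KCNH3, KCNIP2, KCNN1, KCNN3, KCNN4 and KCNU1) and KCNF1 lower, against 2.19% higher and 1.43% lower over all genes. KCNH3, KCNIP2, KCNN1, KCNN3 and KCNU1 reached the listing limit only with their MS-275 libraries, so calls of these genes are no evidence of a rise. Without Control3 replicate 1 limma called 6 higher and 0 lower, against 2.0% and 0.668% of all genes. Without Control3 replicate 2 it called 6 higher and 1 lower, against 1.84% and 0.959%. On leaving out MS-275 replicate 1 or MS-275 replicate 2 it called KCNN1 alone among KCN genes, against 0.139% and 0.127% of all genes called higher. Without a call, the values below describe these 4 libraries. The median log2 fold change was 0.73 over the 44 KCN genes and -0.01 over all genes, and 33 of the 44 were above 0.

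Within both replicate numbers, 14 KCN genes were gained and 3 were lost after MS-275, against 7.19% and 4.92% of all listed genes. Near silent in both Control3 libraries, as were 3.0% of all listed genes, were KCNH3, KCNN1, KCNN3 and KCNJ15 among the KCN genes reported here, and all of these but KCNJ15 were gained. KCNH3, KCNN1 and KCNN3 had under 10 reads in each control library and are listed only through their MS-275 libraries, so their values are a description and no evidence of a rise. KCNIP2 and KCNU1 did not have 10 reads in both control libraries and reached the listing limit only with MS-275 libraries. Their values are likewise a description. By symbol class, the gained genes were 4 of 7 listed calcium- or sodium-activated subunits (KCNU1 among them), 6 of 17 voltage-gated subunits and 4 of 10 auxiliary subunits. No inward rectifier, tandem pore domain or other gene was gained.

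The 4 calcium- or sodium-activated genes included every other KCNN channel besides KCNN2. KCNN1, a small-conductance calcium-activated channel known mainly from brain, was at 0.990 and 6.06 normalized counts in Control3 and at 198 and 603 after MS-275. It rested on 1 and 6 reads in the controls against 204 and 605 reads, a log2 fold change of 6.53 ± 0.90 SE (adjusted p = 0.163). KCNN3, of the same conductance class, was at 1.98 and 1.01 and then at 38.7 and 33.9, a ratio of 24.2 with an exact 95% counting interval of 7.97 to 120. KCNN4, the intermediate-conductance channel of lymphocytes, red cells and fibroblasts, was at 13.9 and 24.3 and then at 108 and 119, with log2 changes of 2.88 and 2.24 within the replicate numbers. KCNU1, a relative of KCNMA1 known from sperm and put in this class by symbol only, was at 7.92 and 14.1 and then at 124 and 221. In each of these 4 genes the lower MS-275 library was above the higher Control3 library. They were picked for a change above 1 within both numbers, so this separation is a description. KCNN2 was at 371 and 233 in Control3 and at 194 and 211 after MS-275 and was neither gained nor lost.

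Of the voltage-gated genes gained, KCNH3 started from almost no reads. KCNH3, of the ether-a-go-go family and overlapping the gene MCRS1, was at 1.98 and 0 in Control3 and at 31.0 and 29.9 after MS-275, a ratio of 30.4 with an interval of 8.08 to 257. These intervals cover counting error only, and not the listing of KCNN3 and KCNH3 through their MS-275 libraries, so they are no evidence of a rise. KCND1, a transient-current channel, was at 183 and 74.8 and then at 583 and 308, with log2 changes of 1.66 and 2.03. KCNC4, a fast voltage-gated channel, was at 165 and 60.6 and then at 403 and 197, and the silent KCNG2 at 33.7 and 24.3 and then at 74.6 and 65.8. The groups of these genes did not overlap. KCNQ3 differed: its values of 90.1 and 23.2 in Control3 and 271 and 51.8 after MS-275 overlapped, although the log2 changes within the numbers were 1.58 and 1.12.

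Of the auxiliary subunits gained, KCNIP2, a calcium-binding partner of KCND pores, was at 13.9 and 0 in Control3 and at 73.6 and 107 after MS-275, and its control libraries stood apart (log2 fold change 4.54 ± 1.37 SE). KCNE1, the partner of KCNQ1 in the slow cardiac current, was at 12.9 and 27.3 and then at 52.3 and 139. KCNE3, which keeps KCNQ1 open in epithelia, was at 14.9 and 16.2 and then at 41.6 and 39.9. KCNAB2, a cytosolic subunit with the fold of an oxidoreductase, was at 423 and 338 and then at 957 and 1212 (1.51 ± 0.34, adjusted p = 0.27). All 4, picked for a gain within both numbers, had both treated libraries above both controls.

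The 3 genes lost after MS-275 were KCND2, KCNF1 and KCNK2. KCNF1 was at 120 and 246 in Control3 and at 42.6 and 37.9 after MS-275 (log2 fold change -2.07 ± 0.51 SE, adjusted p = 0.286). KCNK2 was at 752 and 777 and then at 336 and 292 (-1.28 ± 0.32, adjusted p = 0.293). KCND2 was at 236 and 35.4 and then at 36.8 and 5.98, so that the number 1 treated library lay above the number 2 control, while the changes within the numbers were -2.65 and -2.38. KCNJ15, an inward rectifier that was near silent in the controls, was at 9.90 and 4.04 in Control3 and at 3.87 and 29.9 after MS-275, with changes of opposite sign in the 2 numbers. Neuronal markers moved in the same libraries: 5 of 7 listed were gained (none tested passed), and their summed level was 1366 and 571 in Control3 and 3908 and 1655 after MS-275. STMN2 and NEFL, 2 of the neuronal markers, reached the listing limit only with MS-275 libraries. TUBB3 was lower, at 91.1 and 76.8 and then at 30.0 and 62.8. Of the listed markers of other types, 1 of 8 fibroblast, 1 of 3 epithelial, 1 of 2 endothelial and 0 of 4 smooth muscle markers were gained. The part of all these marker genes in the KCN values was not tested.

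**Figure D2:**
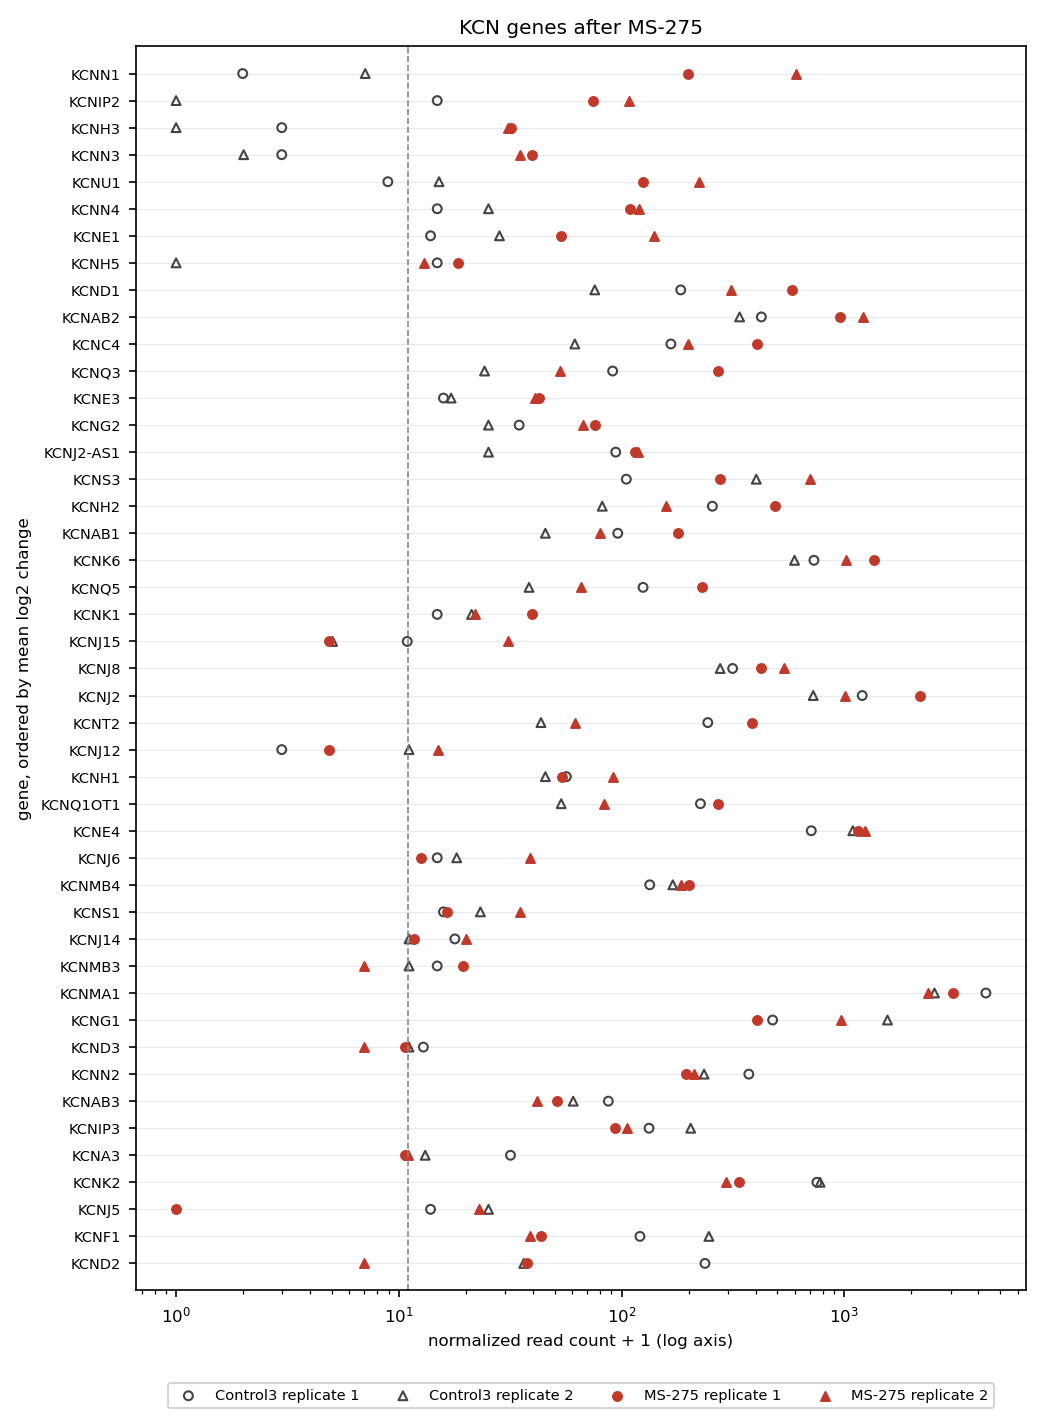
Each KCN gene of the MS-275 experiment that is reported here is a row, with open symbols for the 2 Control3 libraries and filled symbols for the 2 MS-275 libraries, circles for replicate 1 and triangles for replicate 2. The x axis is the normalized count plus 1 on a log axis, and the dashed line marks 10 normalized counts. KCNN1, KCNN3 and KCNH3 lay left of the line in both controls and right of it in both MS-275 libraries.

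**Figure D3:**
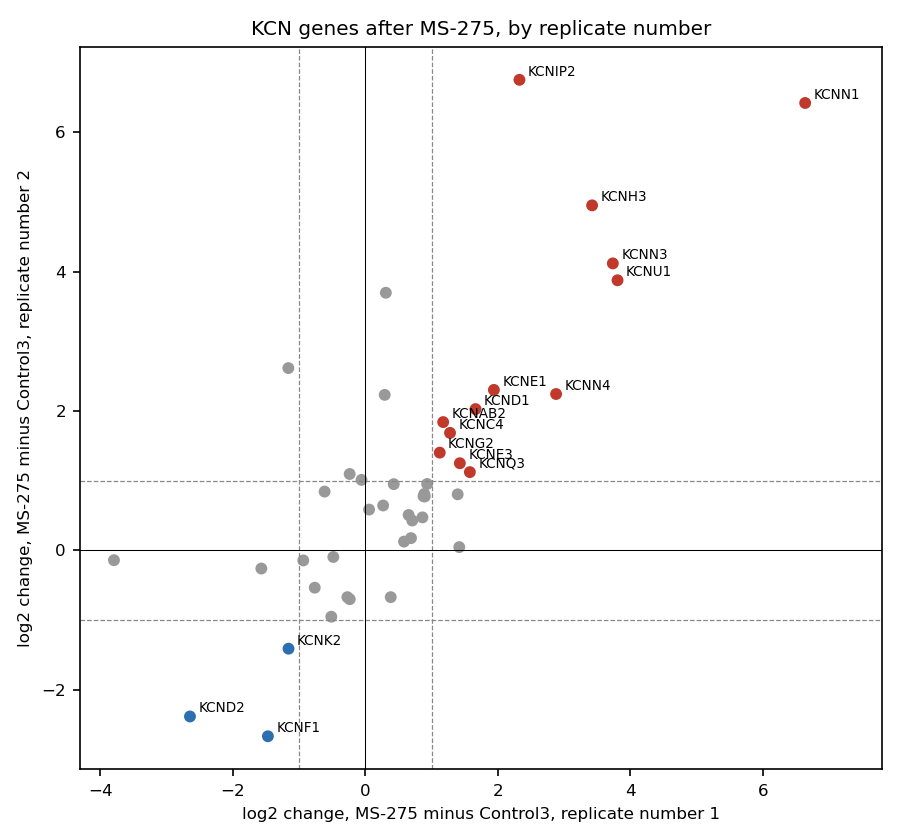
Each point is a KCN gene reported here, with the log2 change of replicate number 1 on the x axis and of replicate number 2 on the y axis, MS-275 minus Control3. Dashed lines mark changes of 1 and -1, and genes gained in both numbers are red, the 3 lost in both blue and the rest grey. KCNN1 had changes of 6.64 and 6.42, and KCNIP2 changes of 2.33 and 6.75.

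The effects of the 2 inhibitors were compared as a contrast over the 8 libraries of both experiments, which have separate controls. Of 33 KCN genes tested, 5 had a lower A485 effect and none a higher one, against 3.2% lower and 0.608% higher over all 15130 genes (limma, adjusted p under 0.05 and an absolute difference above 1). At an unadjusted p under 0.05 the counts were 15 lower and 1 higher, against 10.7% and 6.83% of all genes. KCNQ3 had log2 fold changes of -5.31 after A485 and 1.35 after MS-275, a difference of -6.66 ± 1.29 SE (adjusted p = 0.036). KCNQ3 is listed in the A485 experiment only through Control2, so this difference is a description. With both A485 libraries at 0, its size depends on the pseudocount. It ran from -9.97 to -3.47 over 15 alternatives, with adjusted p from 0.00084 to 0.145, and the call was lost under 7 of them. KCNK2 was lower in the libraries of both inhibitors and more so after A485, by -5.36 ± 0.59 (adjusted p = 0.00579). KCNJ2 differed by -5.17 ± 0.72 (adjusted p = 0.0124), KCNN2 by -4.36 ± 0.65 (adjusted p = 0.0156) and KCNE4 by -3.49 ± 0.60 (adjusted p = 0.0246). Leaving out A485 replicate 1 or A485 replicate 2 left 1 KCN gene called lower, against 0.826% and 1.06% of all genes. Leaving out Control2 replicate 1 left 3, against 1.86%, and leaving out Control2 replicate 2 left 2, against 0.899%. KCNK2 kept its call under each of the 16 alternatives run for it.

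Among the 36 genes in both lists, 4 (KCNC4, KCNE1, KCNG2 and KCNQ3) were lost after A485 and gained after MS-275. Another 3, KCND2, KCNF1 and KCNK2, were lost after both. No gene was gained after A485 and lost after MS-275. The shares of all genes in both lists that moved in these ways were not counted, so the counts are a description. In the A485 experiment KCNQ3 and KCNF1 are listed only through Control2. The differences of effect at KCND2 (0.17 ± 1.49 SE) and KCNF1 (-1.97 ± 0.85) did not pass (adjusted p = 0.97 and 0.29), which does not show that the inhibitors acted alike on them. The KCNN channels were listed unevenly: KCNN1, KCNN3 and KCNN4 were not listed in the A485 experiment, so only KCNN2 could be compared.

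**Figure D4:**
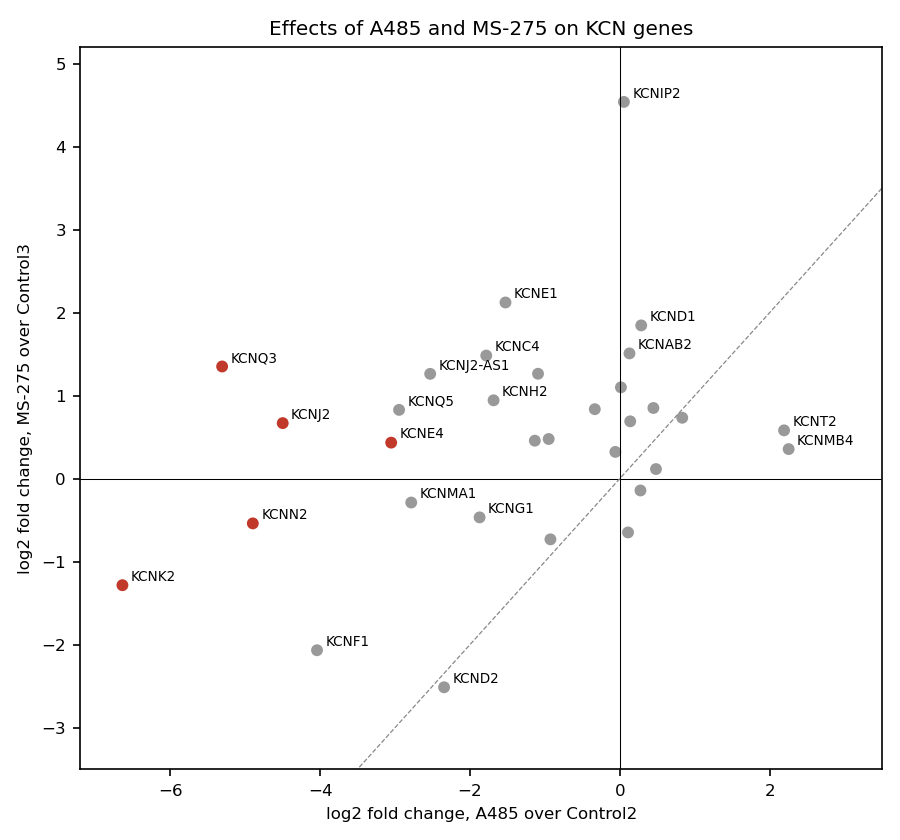
Each point is a KCN gene reported here and tested in both inhibitor experiments, with the log2 fold change of A485 over Control2 on the x axis and of MS-275 over Control3 on the y axis. Points on the dashed line had equal effects, and the 5 genes with a called difference are red. KCNQ3 lies at -5.31 and 1.35 and KCNK2 at -6.64 and -1.28.

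After pyruvate, all 19 listed KCN genes were tested, and 3 were higher and 8 lower, against 31.0% higher and 23.1% lower over all 12013 genes. The voltage-gated KCNG1 and KCNH1 and the leak channel KCNK2 were called higher. KCNG1 was at 72.7 and 74.9 in Control6 and at 478 and 507 after pyruvate, 6.67-fold higher (log2 fold change 2.72 ± 0.19 SE, adjusted p = 1.22e-07). KCNK2 was at 163 and 118 and then at 328 and 380 (1.34 ± 0.21, adjusted p = 9.73e-05). KCNH1, an ether-a-go-go channel, was at 25.5 and 8.68 and then at 40.3 and 47.1 (1.48 ± 0.60, adjusted p = 0.0411), and lost its call under 7 of 14 alternatives, among them without Control6 replicate 2, where its log2 fold change was 0.75, and on leaving out either pyruvate library. KCNH1 did not have 20 reads in both Control6 libraries and reached the listing limit only with its pyruvate libraries. Its call is thus no evidence of a rise. KCNK2 and KCNG1, which had fallen after A485, rose after pyruvate, each against its own controls. KCNE4 and KCNN2, which had also fallen after A485, fell after pyruvate as well. KCNQ3 was called lower in both experiments, but it is listed in the A485 experiment only through Control2. Its A485 values are therefore a description.

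The genes called lower after pyruvate were 3 of 4 listed auxiliary subunits and 5 pore subunits. KCNAB2 was at 643 and 773 in Control6 and at 78.6 and 77.6 after pyruvate, 9.06-fold lower (log2 fold change -3.16 ± 0.18 SE, adjusted p = 2.38e-08). KCNE4 was at 1831 and 1907 and then at 318 and 320 (-2.55 ± 0.10, adjusted p = 1.84e-09), and KCNIP3, a calcium-binding partner of KCND pores that also acts as a transcriptional repressor, was at 138 and 102 and then at 36.4 and 31.4 (-1.78 ± 0.34). At these 3 genes both treated libraries lay below both controls. Of the pores, KCNN2 was at 327 and 304 and then at 68.8 and 84.1 (-2.04 ± 0.22, adjusted p = 4.73e-06). The leak channel KCNK6 was at 1413 and 1533 and then at 367 and 431 (-1.89 ± 0.12). KCNQ3 was at 110 and 109 and then at 33.4 and 31.4 (-1.72 ± 0.34), and the silent KCNS3 at 374 and 468 and then at 165 and 196 (-1.21 ± 0.18). KCNJ6, a rectifier opened by G proteins, was at 31.4 and 68.4 and then at 1.97 and 27.7 (-2.36 ± 0.95, adjusted p = 0.0376). Its treated libraries stood apart, and without pyruvate replicate 1 its log2 fold change was -0.72 and it was not called. KCNJ6 did not have 20 reads in both pyruvate libraries and reached the listing limit only through Control6. Its call is therefore no evidence of a fall. KCNMA1 and KCNJ2 passed in neither direction: KCNMA1 was at 1637 and 1643 and then at 1774 and 1894, and KCNJ2 at 291 and 312 and then at 319 and 272. Quantile normalization moved the KCN counts to 1 higher and 10 lower, against 26.1% and 26.9% of all genes, and scaling to equal library totals moved the share of higher calls over all genes from 57.3% to 71.7% and the KCN counts to 3 higher and 6 lower, against 36.6% and 14.5%. The smooth muscle markers ACTA2, CNN1 and TAGLN fell in the same libraries, from a summed level of 80275 and 83499 to 38703 and 37987, and their part was not tested.

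**Figure D5:**
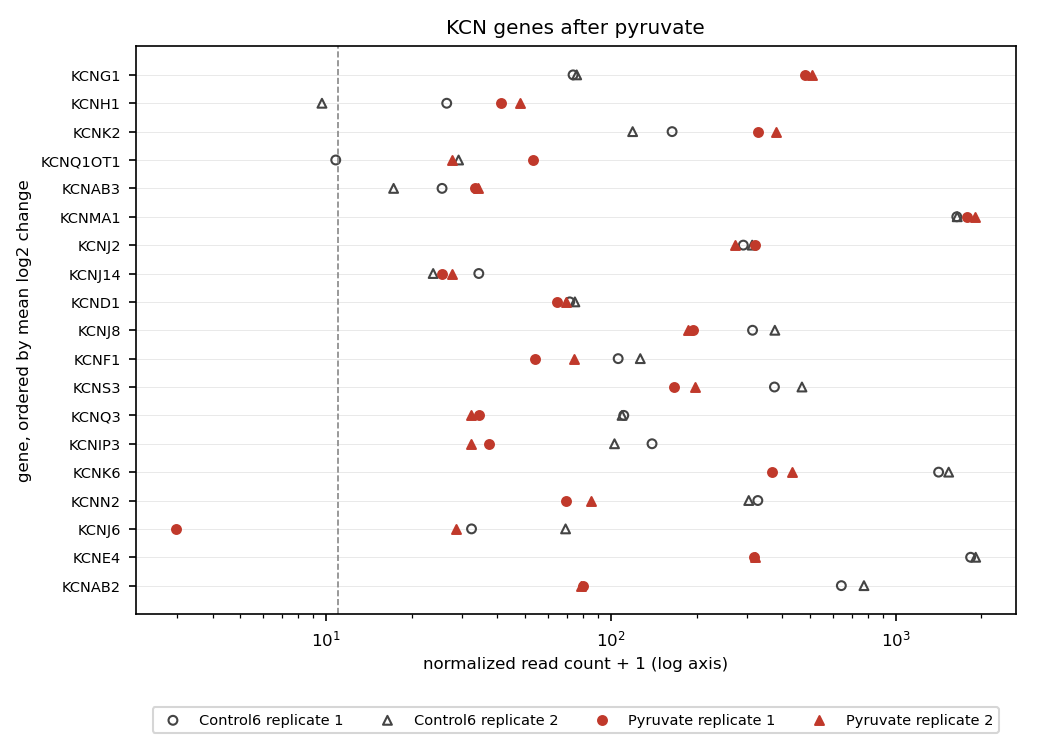
Each KCN gene of the pyruvate experiment that is reported here is a row, with open symbols for the 2 Control6 libraries and filled symbols for the 2 pyruvate libraries, circles for replicate 1 and triangles for replicate 2. The x axis is the normalized count plus 1 on a log axis, and the dashed line marks 10 normalized counts. KCNG1 at the top went from 72.7 and 74.9 to 478 and 507, and KCNAB2 at the bottom from 643 and 773 to 78.6 and 77.6.

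Proteins that bind, traffic or regulate these channels were taken as a list of 25 partner genes, of which 17 were listed in each inhibitor experiment and 15 in the pyruvate experiment. After A485, 2 of 17 rose and none fell, against 3.31% and 7.06% of all genes, and after MS-275 none passed. After pyruvate 5 of 15 rose and 4 fell, shares near the 31.0% and 23.1% of all genes. The median log2 fold change of the list was 0.29 after A485, 0.10 after MS-275 and 0.79 after pyruvate. AMIGO1, an adhesion protein that accompanies voltage-gated pores, was at 204 and 305 in Control2 and at 1066 and 1836 after A485 (log2 fold change 2.48 ± 0.35 SE), and at 618 and 628 in Control6 and at 62.9 and 73.0 after pyruvate (-3.18 ± 0.19). REST, a repressor of neuronal genes including channel genes, was at 2606 and 2980 in Control2 and at 3357 and 3704 after A485 and did not pass, at 3203 and 1080 in Control3 and at 2570 and 823 after MS-275 and did not pass, and rose after pyruvate from 78.6 and 85.7 to 377 and 387. Of 24 genes for the sodium pump, cation cotransporters and pacemaker channels, 10, 12 and 9 were listed in the 3 experiments. The pump subunit ATP1B2, the 1 gene of the 10 that passed after A485, was at 2.14 and 0 in Control2 and at 62.4 and 38.3 after A485. It is listed only through its A485 libraries, so this is a description and no evidence of a rise. None of the 12 passed after MS-275, and 3 of 9 rose and 2 fell after pyruvate, against the same 31.0% and 23.1%.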

How the data were processed

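Bulk RNA-seq of 12 IMR90 libraries was used; mouse muscle libraries of the series were not used here. The authors trimmed reads with Trim Galore (0.6.10), aligned them to hg38 by HISAT2 (2.2.1) and counted them per gene by featureCounts (2.0.6); SAMtools (1.7) is also listed. The annotation and strand setting are not given in the sources used here. The deposited values are a signal, counts over 1 size factor per library from DESeq2 (1.34.0). They were whole multiples of 1 read (100.0% within a tolerance of 0.001), so reads were recovered. Each listed gene had at least 10 reads in 2 libraries (20 for pyruvate).

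Genes averaging 10 or more over an experiment's 4 libraries were tested by limma (3.58.1, R 4.3.3) on log2(value + 1), a scale that understates changes of low genes, with an intensity trend, two-sided, adjusted over all genes tested, after trial on simulated data. Alternatives were edgeR (4.0.16) and DESeq2 (1.42.0) on recovered reads, other pseudocounts, filters, scalings and thresholds, a replicate block, 1 fit over all libraries, and each library left out. Counting intervals are exact (95%). Values are printed for KCN genes called after A485 or pyruvate, gained or lost after MS-275, near silent in controls, highest per kilobase in Control2, or with a called difference of effects; other genes were named after their values were seen. Values of 2 KCN genes are not reported here, though the counts include these genes. The genes and lists were chosen with earlier results of these data known. Positions and exon lengths are from GENCODE (release 44, hg38), promoters from RefSeq. Tables and figures used Python (3.11.15), pandas (2.3.3) and matplotlib (3.10.9).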

Additional observations from a re-analysis of the deposited data

Results flagged for a closer look

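At 5 KCN genes the effect of A485 differed from that of MS-275 by the test of the difference itself (limma contrast over 8 libraries, adjusted p under 0.05). The log2 effect of A485 minus that of MS-275 was -6.66 at KCNQ3, -5.36 at KCNK2, -5.17 at KCNJ2, -4.36 at KCNN2 and -3.49 at KCNE4. At KCNQ3, KCNJ2 and KCNE4 the effects had opposite signs, and at KCNK2 and KCNN2 both were below 0. The value at KCNQ3, listed at 0 in both A485 libraries, depends on the pseudocount, and its call was lost under 7 of 15 alternatives. KCNQ3 is listed in the A485 experiment only through its Control2 libraries, so its difference is a description. The MS-275 effect itself passed the test at none of the 5 genes. The experiments had separate controls and each condition 2 libraries, so experiment and inhibitor cannot be told apart.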

How the results depend on the processing

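No KCN call turned its direction, but genes that were not called changed sign, at most 4 at a time under 1 alternative after A485, 5 after MS-275, 3 after pyruvate and 4 in the difference. Of these, KCNJ5 alone had a log2 fold change beyond 1 in size, -1.97 after MS-275 and 0.29 without MS-275 replicate 1. After A485, higher calls numbered 2, but 1 without the intensity trend, 0 in the fit shared by 12 libraries, in which KCNT2 and KCNMB4 could not be tested, and 0 to 2 on leaving out 1 library. Lower calls numbered 8, but 13 by DESeq2 and 3 to 8 on leaving out 1 library. After MS-275, the 0 higher and 0 lower calls became 8 and 1 by DESeq2, 1 and 0 in the shared fit, and 1 to 6 and 0 to 1 on leaving out 1 library. The shared fit could not test KCNN1, KCNN3, KCNN4, KCNH3, KCNIP2 and KCNU1, which are not listed in the pyruvate experiment. After pyruvate, higher calls went from 3 to 1 under quantile normalization and lower calls from 8 to 5 in the shared fit. Lower differences between A485 and MS-275 numbered 5, and 1 to 6 on leaving out 1 library. With pseudocount 10, gains were 2 after A485 and 1 after pyruvate, which was also 1 under quantile normalization. With a change above 2 in both numbers, gains and losses were 1 and 10 after A485, 7 and 1 after MS-275, and 1 and 2 after pyruvate. With a limit of 20 normalized counts, 6 (A485) and 14 (MS-275) genes were near silent, and with 5, 3 after MS-275. Over all genes after A485, 1.6% were higher without the trend, 2.83% higher in the shared fit and 9.59% lower by DESeq2. After MS-275, 2.19% were higher and 1.43% lower by DESeq2, and 1.84% and 2.23% in the shared fit. After pyruvate, 26.1% were higher under quantile normalization and 21.7% lower in the shared fit. Shares of all genes were not counted for the alternative settings of gain, loss and near silence. The causes were not tested.

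With the replicate number as a block, lower calls were 14 after A485 (1616 of all 16084 genes), higher and lower calls after MS-275 were 16 and 3 (7.74% and 6.0% of all genes), and higher and lower differences between the drugs were 2 and 19 (8.04% and 12.5%). Deviations from the group means of same-numbered libraries correlated at 0.73 over genes for MS-275, 0.32 for A485 and 0.0020 for pyruvate. With 2 pairs and no label that says so, the numbers were not taken as pairs. Under scaling to equal totals the all-gene median log2 fold change was 0.40 (A485), -0.15 (MS-275), 0.30 (pyruvate) and 0.55 (difference), and under quantile normalization 0.12, -0.03, -0.18 and 0.14. No KCN gene with an absolute log2 fold change above 1 changed sign under these scalings. Equal totals gave 1672 higher and 915 lower genes after A485, 64.6% higher against 31.9%, with 2 and 8 KCN calls as before. Low depth limits KCNN3 and KCNH3, with 3 and 2 reads over both Control3 libraries.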
